A study of Mus musculus with 6 samples.

Results

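The miR-29 family (mmu-miR-29a-3p, mmu-miR-29b-3p, mmu-miR-29c-3p and their passenger strands) was examined by small RNA sequencing of primary mouse mesangial cells, which support the capillary loops of the glomerulus and can contract. Its members were found by name as every row that gives an arm of the hairpins miR-29a, miR-29b-1, miR-29b-2 or miR-29c, which gave 7 of the 778 rows of the table. Of these, 6 passed a filter on low reads and were among the 408 miRNAs tested, and miR-29b-2-5p did not pass. The Control group held 3 libraries of cells that received no cytokine, and the TGF-beta1 group held 3 libraries of cells given transforming growth factor β1 (TGF-β1), a driver of fibrosis, at 10 ng/ml over 72 h. Both groups were grown in high glucose (25.5 mM) with 20% serum and taken at passages 3 to 6, so the controls were also high-glucose cultures. The labels do not say whether the libraries of a group came from separate cultures, and p-values therefore measure the spread between these libraries, which may be technical. In bulk RNA, fewer cells of a type and less RNA per cell cannot be told apart.

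A microRNA hairpin is cut into a duplex of 2 arms, of which the guide strand is loaded into an Argonaute protein and the passenger strand is mostly degraded. The guide recognises mRNAs through its seed, the bases 2 to 8 from its 5′ end, and lowers the stability and translation of mRNAs that carry the complement. In the miR-29 family the 3p arms are the guide strands. They are known for repressing many mRNAs of the extracellular matrix, above all collagens, and a loss of miR-29 has been described in fibrotic kidney, heart and liver, where TGF-β signalling through Smad3 is a known repressor. The comparison asked whether the family fell in mesangial cells after TGF-β1.

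The mature sequences, from RefSeq for the GRCm38.p6 build, are shown because the guides share a seed and differ by few bases. All 7 rows matched a sequence by name. Each is written 5′ to 3′ with the seed in capitals.
miR-29a-3p: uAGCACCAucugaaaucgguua
miR-29b-3p: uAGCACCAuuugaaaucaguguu
miR-29c-3p: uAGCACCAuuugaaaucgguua
miR-29a-5p: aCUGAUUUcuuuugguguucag
miR-29b-1-5p: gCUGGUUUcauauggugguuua
miR-29b-2-5p: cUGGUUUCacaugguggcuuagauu
miR-29c-5p: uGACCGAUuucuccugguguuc

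The 3 guide strands carried the same seed, and no other mature miRNA among the 1679 RefSeq sequences shared it. Counted from 1 at the 5′ end, miR-29a-3p and miR-29c-3p differed at 1 position, C10U. MiR-29a-3p and miR-29b-3p differed at 4 of 22 shared positions, C10U, G18A, U21G and A22U. The passenger strands had 4 different seeds, and miR-6338 was the other mature miRNA with the seed of miR-29b-2-5p. How the authors counted reads that match several miRNAs is not stated in the sources used here, so a read of miR-29a-3p with an error at the position that separates them could have been counted for miR-29c-3p.

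The 4 hairpins lie at 2 loci of the NCBIM37 mouse genome (GENCODE vM1 annotation). Mir29a (chromosome 6, 31012660 to 31012747) and Mir29b-1 (31013017 to 31013097) lie on the minus strand within 438 bp of each other, overlap no other annotated gene, and are 102776 and 102426 bp from the nearest protein-coding gene, AB041803. Mir29b-2 (chromosome 1, 196863234 to 196863314) and Mir29c (196863741 to 196863828) lie on the plus strand within 595 bp of each other, in exonic sequence of the long non-coding RNA A330023F24Rik. The mature sequences of each arm were found in the hairpin of this genome. Mir29b-1 and Mir29b-2 contain the same miR-29b-3p, so its reads cannot be assigned to a locus, whereas their 5p arms differ.

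The targets by which the family is best known can be read from the genome. A match to the seed in a mRNA is TGGTGCT, and TGGTGCTA where an A follows it. Of 29 matrix and TGF-β genes from a fixed list with an annotated 3′ untranslated region, 22 held TGGTGCT and 15 held TGGTGCTA on the sense strand. Over all 19915 genes with such an annotation the shares were 12.4% and 2.64%, and in the list they were 75.9% and 51.7%. Genes of a single chromosome were left out of the list counts but kept in those over all genes. Per kilobase, the list held 0.880 TGGTGCT matches and all genes held 0.112, with median lengths of 1111 and 893 bases. The list was written from knowledge of miR-29 targets, so a high share is built into it. Of its 20 collagen genes 17 held a match, including 4 in Col5a1 and 3 in Col4a5, while Col1a2, Col6a1 and Col6a3 held 0 of these letters in the annotated region. The sites of 3 collagens of fibrillar and basement membrane matrix are given as the 22 bases opposite a guide strand, with the match in capitals.
Col1a1 (chr11:94813838-94813859, plus strand): tgggaaggaatttcTGGTGCTA
Col3a1 (chr1:45405813-45405834, plus strand): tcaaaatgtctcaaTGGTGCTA
Col4a1 (chr8:11199761-11199782, minus strand): ccaccgtcacaacaTGGTGCTA
A match is a description of sequence. Whether these mRNAs changed was not analysed here.

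The library totals were 16478281 to 17623671 reads in Control and 17086815 to 20169254 in TGF-beta1, so 1 read was worth 0.0496 to 0.0607 RPM (reads in each 1000000 of the library total). The rows summed to 79.6% ± 0.142 of a library total in Control and 72.3% ± 0.752 in TGF-beta1 (SD, n = 3 each). Some rows held identical values, such as miR-297a-3p, miR-297b-3p and miR-297c-3p, so this sum may count the same reads more than once. The 4 named miRNAs of mesenchymal or contractile cells summed to 2575 to 2946 RPM in Control and 2603 to 3066 in TGF-beta1, mostly miR-143-3p, and their members moved both ways. MiR-145-5p rose from 127.4 ± 26.7 to 238.6 ± 7.91 RPM (log2 change 0.92, limma adjusted p = 0.00235), and miR-199a-3p fell, with 601.3 ± 57.4 RPM in Control and 484.0 ± 3.86 in TGF-beta1 (SD, n = 3 each; -0.31, limma adjusted p = 0.0219), a call that ended with the 4 other scalings (-0.17 to -0.093, limma adjusted p = 0.156 to 0.536). MiR-143-3p (0.010) and miR-214-3p (-0.20) did not pass. All 5 epithelial miRNAs (the miR-200 family) were among the rows, but miR-200c-3p and miR-141-3p reached at most 0.112 and 0.0607 RPM and were not tested. The sum of the 5 was 22.2 to 25.4 RPM in Control and 1.67 to 2.53 in TGF-beta1. It came nearly all from miR-200a-3p, miR-200b-3p and miR-429-3p. The liver miRNA miR-122-5p went from 24.2 to 27.3 RPM down to 13.1 to 13.9. Of 5 miRNAs of skeletal or heart muscle 3 were among the rows, with sums of 3440 to 3646 RPM and 3285 to 3465 RPM. Nearly all of this was miR-206-3p, at means of 3502 and 3363 RPM, which did not pass (-0.058, limma adjusted p = 0.420). MiR-1a-3p was at 9.99 and 10.8 RPM and miR-133a-3p, not tested, at 0.0807 and 0.0381. The neuronal pair miR-124-3p and miR-9-5p summed to 2.06 to 2.40 and 1.40 to 1.93 RPM, and its members went opposite ways. MiR-124-3p went from 1.38 to 0.694 RPM (-0.50, limma adjusted p = 0.0454), a call that ended with the 4 other scalings (0.0778 to 0.101). MiR-9-5p went from 0.884 to 1.05 RPM and did not pass (0.13, limma adjusted p = 0.428). Endothelial miR-126-3p reached at most 0.0992 RPM. Of 5 names of blood cell miRNAs 2 were among the rows, miR-150-5p and miR-451, together at most 0.420 RPM. The names miR-142a-3p, miR-142-3p and miR-223-3p had no row, so blood cells were covered only in part. The part of these cell types in the changes of miR-29 was not tested.

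After TGF-β1 the family did not move as 1 unit. The major guide miR-29a-3p rose slightly, the minor guides miR-29b-3p and miR-29c-3p fell, and the passenger strands miR-29a-5p and miR-29b-1-5p of the chromosome 6 locus rose. Of the 6 tested rows, 3 were higher and 2 were lower at a limma adjusted p under 0.05, where 17.4% of all tested miRNAs were higher, 31.9% were lower and 49.3% passed in either direction. In 5 of the 6 the Control and TGF-beta1 ranges stayed apart, against 56.9% of all tested miRNAs. None of the 6 (0) had an absolute log2 change above 1 as well, where 12.3% of all tested miRNAs did (4.41% higher and 7.84% lower), although 5 had an unadjusted limma p under 0.05; with edgeR on the recovered reads and TMM, miR-29a-5p and miR-29b-1-5p passed both, as they did with DESeq2. On the log2 scale the 6 had a median change of 0.19, and all 408 had one of -0.17, against which the members can be read. The median of the 6 pools guide and passenger strands with changes from -0.75 to 0.84, so it describes no single row.

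MiR-29a-3p, the most abundant member, ranked 15 among the 778 rows in both groups. It was at 5184, 5467 and 4914 RPM in Control replicates 1 to 3, and at 5620, 6002 and 6407 RPM in TGF-beta1 replicates 1 to 3. The highest control library lay below the lowest treated one, by a narrow margin. The mean went from 5188 ± 277 to 6010 ± 394 RPM (SD, n = 3 each), 15.8% higher. The log2 change of (RPM + 1) was 0.21 ± 0.07 (SE, limma adjusted p = 0.0320), or 0.39 above the median of all tested miRNAs. The call ended without Control replicate 1 (limma adjusted p = 0.0774), Control replicate 3 (0.0929), TGF-beta1 replicate 2 (0.0831) or TGF-beta1 replicate 3 (0.104), while the change stayed between 0.16 and 0.26. With TMM, median-of-ratios, upper-quartile or listed-read scaling the change was 0.36, 0.43, 0.35 and 0.35, with limma adjusted p-values of 0.00550, 0.00325, 0.0307 and 0.00403.

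MiR-29c-3p, the guide that belongs to the chromosome 1 locus alone, fell. It was at 52.9, 51.0 and 51.6 RPM in the control libraries and at 26.8, 30.8 and 34.2 RPM in the treated ones, or 851 to 909 reads against 541 to 584. The control libraries were close together and all lay above every treated library. The mean went from 51.8 ± 0.944 to 30.6 ± 3.68 RPM (SD, n = 3 each), and the ratio of means was 0.591. The log2 change was -0.75 ± 0.12 (SE, limma adjusted p = 0.00214), which placed it at rank 71 from the lowest change among 408.

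MiR-29b-3p, the guide shared by both loci, fell as well. It was at 52.5, 49.9 and 39.8 RPM in the control libraries and at 31.5, 26.8 and 32.5 RPM in the treated ones. Control replicate 3 lay nearest to the treated libraries but still above them. The mean went from 47.4 ± 6.68 to 30.3 ± 3.02 RPM (SD, n = 3 each), and the ratio of means was 0.639, and the log2 change was -0.62 ± 0.15 (SE, limma adjusted p = 0.00914). Its rank from the lowest change was 88 of 408. The falls of both minor guides kept their direction and stayed under an adjusted p of 0.05 under each of the other 4 scalings, at -0.41 to -0.49 for miR-29b-3p and -0.54 to -0.61 for miR-29c-3p.

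**Figure D1:**
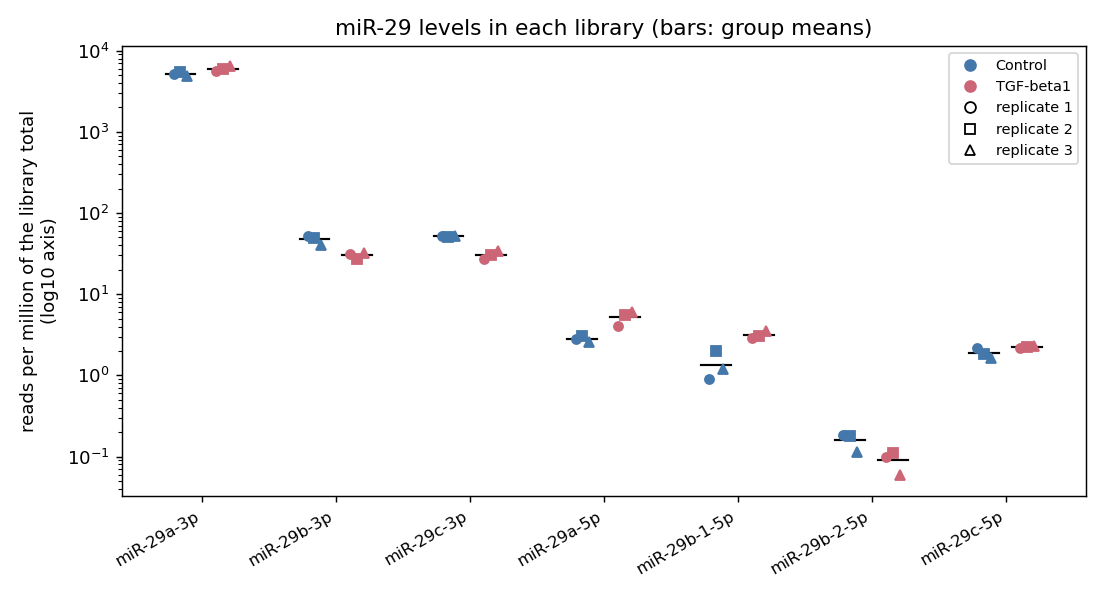
Level of each of the 7 miR-29 rows in each library, in RPM on a log10 axis. Points are libraries (circle, square and triangle for replicates 1 to 3), coloured by group, and bars are group means. MiR-29a-3p, at 4914 to 6407 RPM, sits far above the other guides, which are lower in the 3 treated libraries, while miR-29a-5p and miR-29b-1-5p are higher there.

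The passenger strands were rare, at 6.09 RPM or less in every library. MiR-29a-5p was at 2.79, 3.06 and 2.55 RPM in the control libraries and at 4.07, 5.58 and 6.09 RPM in the treated ones, from 45 to 51 reads against 82 to 104. All treated libraries lay above all control libraries. Its mean went from 2.80 ± 0.252 to 5.24 ± 1.05 RPM (SD, n = 3 each), and the ratio of means was 1.87, with a log2 change of (RPM + 1) of 0.70 ± 0.16 (SE, limma adjusted p = 0.00899).

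MiR-29b-1-5p, which comes from the same locus as miR-29a, was at 0.910, 1.98 and 1.19 RPM in the control libraries and at 2.93, 3.01 and 3.57 RPM in the treated ones. These were 15, 33 and 21 reads against 59, 54 and 61. Control replicate 2 was the highest of its group and still lay below the treated libraries. The mean went from 1.36 ± 0.554 to 3.17 ± 0.349 RPM (SD, n = 3 each), and the ratio of means was 2.33, and the log2 change was 0.84 ± 0.18 (SE, limma adjusted p = 0.00703), rank 29 from the highest change among 408. For rows this low the size depends on the pseudocount. With a pseudocount of 0.1 the log2 changes of miR-29a-5p and miR-29b-1-5p were 0.87 and 1.22, and with 10 they were 0.25 and 0.21, each with an adjusted p under 0.05.

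At the other locus the passenger strands did not pass the test or could not be tested. MiR-29c-5p was at 2.18, 1.86 and 1.65 RPM in the control libraries and at 2.18, 2.23 and 2.28 RPM in the treated ones. The groups overlapped, since Control replicate 1 lay within the range of the treated libraries. The log2 change was 0.16 ± 0.13 (SE, limma adjusted p = 0.327). MiR-29b-2-5p had 3, 3 and 2 reads in the control libraries and 2, 2 and 1 in the treated ones. These counts are no higher than the 3 reads that a count of 0 allows (0.149 to 0.182 RPM, counting error only), so no fold is given.

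**Figure D2:**
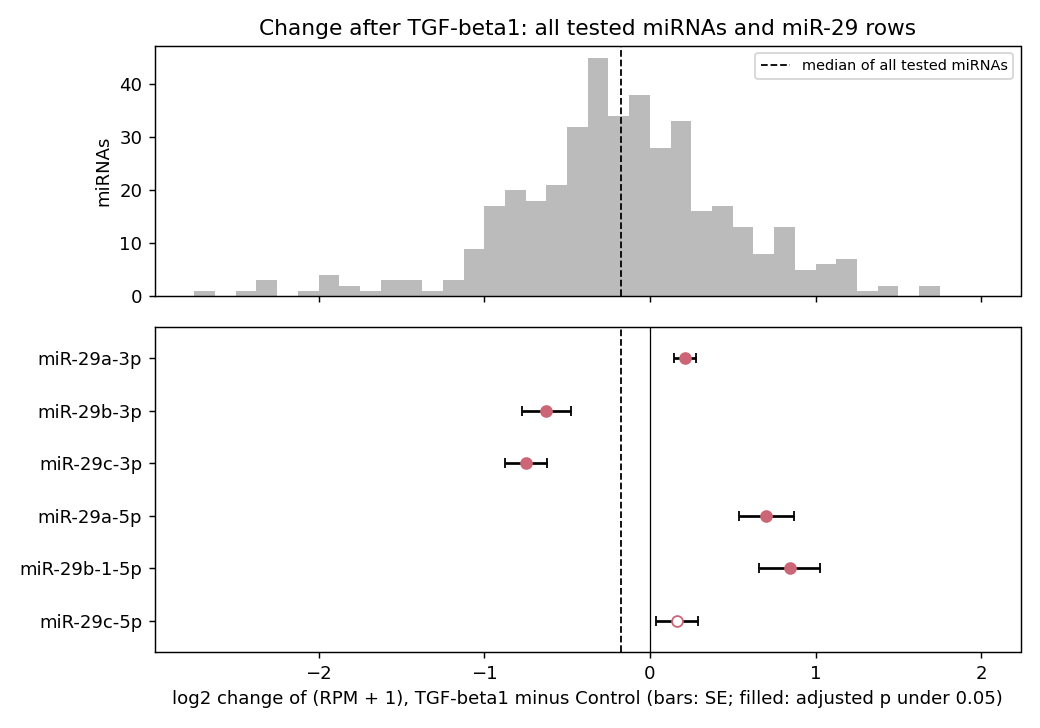
Log2 change of (RPM + 1), TGF-beta1 minus Control. The upper panel counts the 408 tested miRNAs by change, and the lower panel gives the 6 tested miR-29 rows with their SE, filled where the limma adjusted p was under 0.05. The dashed line is the median of all tested miRNAs at -0.17. MiR-29b-3p and miR-29c-3p lie to its left, and the other 4 rows, with miR-29c-5p open, lie to its right.

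Since the guides share a seed, their sum was also described, without a test. The summed guide strands were at 5290, 5568 and 5005 RPM in the control libraries and at 5678, 6060 and 6474 RPM in the treated ones. The treated libraries lay above the control libraries, and the mean went from 5287 ± 281 to 6071 ± 398 RPM (SD, n = 3 each), 14.8% higher. This follows miR-29a-3p, which made up 98.1% ± 0.0998 of the sum in Control and 99.0% ± 0.0445 in TGF-beta1 (SD, n = 3 each). The size of the rise depended on the scaling, at 26.4% to 33.5% with the 4 others. MiR-29b-3p and miR-29c-3p together went from 99.2 ± 7.12 to 60.9 ± 5.01 RPM (SD, n = 3 each). The share of miR-29c-3p in the sum went from 0.982% ± 0.0591 to 0.503% ± 0.0282, and that of miR-29b-3p from 0.895% ± 0.0983 to 0.500% ± 0.0561 (SD, n = 3 each).

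**Figure D3:**
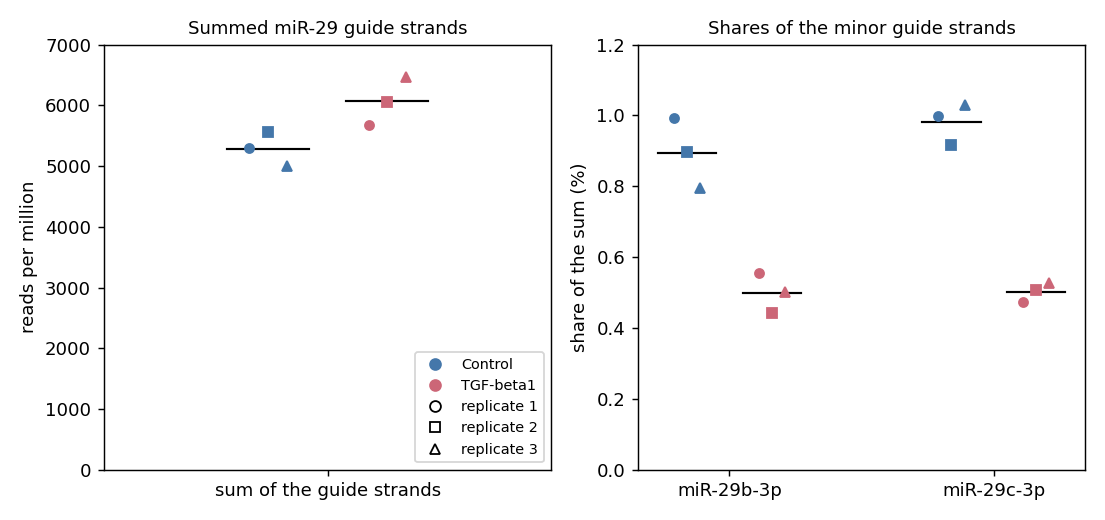
Left, the sum of the 3 guide strands in each library in RPM. Right, the share of miR-29b-3p and of miR-29c-3p in that sum in percent. Points are libraries and bars are group means; the sum lies at 5678 RPM or above in the treated libraries, and both shares lie lower there than in every control library.

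Ratios between guides within a library are almost free of the scaling of the libraries. There were 95.3 to 107.2 reads of miR-29a-3p for each read of miR-29c-3p in the control libraries and 187.5 to 209.5 in the treated ones. The log2 ratio of miR-29c-3p to miR-29a-3p differed by -0.96 ± 0.07 between the groups (SE, exact two-sided permutation p = 0.1, adjusted p = 0.15 over 3 ratios, n = 3 each). There were 98.8 to 123.4 reads of miR-29a-3p for each read of miR-29b-3p in the control libraries and 178.2 to 223.5 in the treated ones. That log2 ratio differed by -0.84 ± 0.13 (SE, exact two-sided permutation p = 0.1, adjusted p = 0.15, n = 3 each). For both ratios all treated libraries lay below all control libraries, and 0.1 is the smallest p that 3 against 3 libraries allow. The log2 ratio of miR-29c-3p to miR-29b-3p overlapped between the groups and differed by -0.12 ± 0.17 (SE, exact two-sided permutation p = 0.6, adjusted p = 0.6, n = 3 each).

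Within hairpins, the guide arm of miR-29c lost ground to its passenger arm, and the same difference in miR-29a missed the threshold. For miR-29c there were 24.2, 27.5 and 31.3 guide reads per passenger read in the control libraries and 12.3, 13.8 and 15.0 in the treated ones. Every treated library lay below every control library. Over 103 hairpins with both arms tested, of which 19.4% changed and 13.6% changed toward the 5p arm, the log2 arm ratio of miR-29c (3p over 5p) changed by -0.91 ± 0.21 (SE, limma adjusted p = 0.0273). This call ended without Control replicate 1 (limma adjusted p = 0.0904), Control replicate 2 (0.0725), Control replicate 3 (0.0761) or TGF-beta1 replicate 2 (0.118), with changes between -0.98 and -0.83.

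For miR-29a there were 1857, 1788 and 1924 guide reads per passenger read in the control libraries and 1382, 1075 and 1053 in the treated ones, and the groups did not overlap. TGF-beta1 replicate 1 lay nearest to the control libraries. The log2 arm ratio of miR-29a changed by -0.49 ± 0.16 (SE, limma adjusted p = 0.0513), which missed the threshold and passed without TGF-beta1 replicate 1 (-0.59, limma adjusted p = 0.0285). Here the guide did not fall: both arms were higher and the passenger by more, whereas in miR-29c the guide fell while the passenger strand did not pass the test. With a pseudocount of 1 the ratio understates the change of a passenger strand this rare. The miR-29a value was -0.65 with a pseudocount of 0.1 (limma adjusted p = 0.0550) and -0.039 with 10 (limma adjusted p = 0.754).

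**Figure D4:**
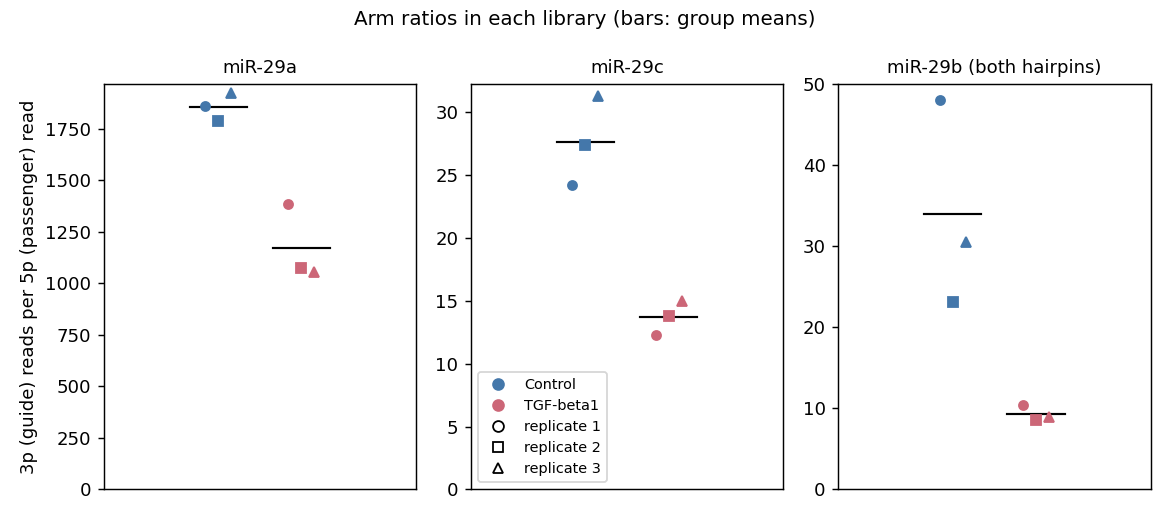
Guide (3p) reads per passenger (5p) read in each library for miR-29a, miR-29c and miR-29b, whose 5p reads are summed over its 2 hairpins. Points are libraries, bars are group means, and each panel has its own axis from 0. In each panel the 3 treated libraries lie below the 3 control libraries.

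For miR-29b the guide cannot be split by hairpin, so its reads were set against the passenger reads of both. There were 48.1, 23.1 and 30.5 guide reads per passenger read in the control libraries and 10.4, 8.59 and 8.95 in the treated ones. The control libraries were spread widely but all lay above the treated ones. No test was planned for this ratio and none is given. The passenger reads came mainly from Mir29b-1, the chromosome 6 hairpin: 69 of 77 reads in Control, or 89.6% (Wilson 95% interval 80.8% to 94.6%), and 174 of 179 in TGF-beta1, or 97.2% (93.6% to 98.8%). In single libraries this share ran from 83.3% to 91.7% in Control and from 96.4% to 98.4% in TGF-beta1. Copies made by PCR are not separate molecules, so both intervals reflect the error of counting alone.

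By locus, the rows that belong to 1 locus alone can be set side by side. At chromosome 6, miR-29a-3p, miR-29a-5p and miR-29b-1-5p were all higher, with log2 changes of 0.21, 0.70 and 0.84. At chromosome 1, miR-29c-3p was at -0.75, miR-29c-5p at 0.16 without passing the test, and miR-29b-2-5p at 1 to 3 reads. At this locus the test called only the guide miR-29c-3p.

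The tested miRNAs whose profiles over the 6 libraries lay nearest to a member are given as a description. The measure was the root mean square difference of log2(RPM + 1), each profile centred on its own mean. Nearest to miR-29a-3p were miR-181b-5p (0.035), miR-25-5p (0.041), miR-1966 (0.059), miR-1839-5p (0.063) and miR-192-5p (0.077), whose log2 changes ran from 0.13 to 0.29. Nearest to miR-29c-3p were miR-16-5p (0.096), miR-181c-5p (0.10), miR-196a-5p (0.11), miR-425-3p (0.12) and miR-361-5p (0.12), with log2 changes from -0.87 to -0.73. Of those nearest to miR-29a-3p, miR-25-5p and miR-192-5p passed the test, while miR-181b-5p, miR-1966 and miR-1839-5p did not. By the same measure miR-29b-3p lay 0.18 from miR-29c-3p and 0.44 from miR-29a-3p, while miR-29a-3p and miR-29c-3p lay 0.48 apart. The passenger strands miR-29c-5p, miR-29a-5p and miR-29b-1-5p lay 0.086, 0.26 and 0.36 from miR-29a-3p. From miR-29c-3p they lay 0.47, 0.73 and 0.82. These strands were at 6.09 RPM or less, and miR-1966 was at means of 1.01 and 1.26 RPM. The added 1 shrinks the log2 changes of rows this low, so their distances depend on the pseudocount as well.

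Other miRNAs linked to fibrosis or TGF-β signalling were taken from a list of 30 names, of which 22 were tested. Of these, 4 were higher (miR-192-5p, miR-194-5p, miR-382-5p and miR-433-3p), where 17.4% of all tested miRNAs were, 10 were lower, where 31.9% were, and 8 did not pass, with a median log2 change of -0.21 against -0.17 over all tested miRNAs. Without Control replicate 1, Control replicate 3 or TGF-beta1 replicate 3, 2 were higher in place of 4. MiR-21-5p, often raised in fibrotic tissue, was at 15381 ± 558 RPM in Control and 16920 ± 1668 in TGF-beta1 (SD, n = 3 each). The groups overlapped and it did not pass (log2 change 0.13, limma adjusted p = 0.163), but it passed with the 4 other scalings at 0.27 to 0.35. MiR-192-5p, abundant in kidney and described as induced by TGF-β1 in mesangial cells, went from 296.9 ± 6.99 to 349.6 ± 11.8 RPM (SD, n = 3 each). Its log2 change was 0.23 (limma adjusted p = 0.0396), beside 0.21 for miR-29a-3p. The lower ones ranged from let-7c-5p at -0.28 to miR-200a-3p at -2.64, and 8 of them had a lower value than miR-29c-3p, namely miR-196a-5p, miR-199a-5p, miR-26a-5p, miR-30c-5p, miR-101a-3p, miR-429-3p, miR-200b-3p and miR-200a-3p. With the other scalings the 10 kept their direction, while let-7c-5p passed the test with listed-read scaling and not with TMM, median-of-ratios or upper-quartile scaling.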

How the data were processed

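Small RNA of 6 mesangial cell libraries was sequenced. Per the study's methods, the authors trimmed adaptors, removed reads shorter than 18 nt or of low quality and aligned the rest to miRBase version 17 with Bowtie, whose version is not given in the sources used here. The authors deposited RPM values (named TPM in the table) relative to each library total, from which whole reads were recovered: 100% of values were whole within 0.002 reads.

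Rows were filtered with edgeR filterByExpr (minimum count 10; edgeR 4.0.16), and log2(RPM + 1) was tested with limma 3.58.1 (R 4.3.3) on the 6 libraries without a block, with Benjamini-Hochberg adjustment over 408 miRNAs and a threshold of 0.05. Arm ratios were tested likewise over 103 hairpins, and guide ratios by exact two-sided permutation (scipy 1.17.1). Every miR-29 row was named, with the 5 nearest profiles and the fibrosis list. The members and lists were chosen with earlier results of these data known.

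Alternatives were other scalings, filters, pseudocounts, edgeR and DESeq2 (1.42.0) on the recovered reads, a replicate block, identical rows kept once, and each library left out. The scripts were tested on simulated data. Replicates differed by far more than counting noise (chi-square 43.2 to 137.9 per degree of freedom), and each was kept as a library of its own. This spread cannot tell separate cultures from repeat preparations of the same culture. Library totals limit the precision, and intervals cover counting error only. List names that the table gives in an older form (such as miR-21a-5p, there miR-21-5p) were matched through RefSeq synonyms. MiR-216a-5p was not analysed here.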

Additional observations from a re-analysis of the deposited data

How the results depend on the processing

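Of the alternatives run on the miR-29 values given here, 0 reversed a direction. Outside the family, miR-206-3p was at -0.058 and reached 0.079 to 0.16 with the 4 other scalings. MiR-93-5p of the fibrosis list was at -0.21 and reached 0.0083 with median-of-ratios scaling. Neither passed the test in any of these fits. MiR-29a-3p stayed at 0.21 but missed the threshold with no filter (adjusted p = 0.0501) and with the replicate block (0.0601), and ranged from 0.16 to 0.26 without single libraries. With an absolute log2 change above 1 also required, limma called 0 members higher and 0 lower (5 had an unadjusted p under 0.05; edgeR with TMM called 2, edgeR with library totals 1 and DESeq2 2, all higher), 18 of all miRNAs higher and 32 lower, and 1 of the fibrosis list higher and 6 lower. DESeq2 called 72 of all miRNAs lower. The fibrosis list had 2 higher under the block and 2 to 4 without single libraries. The miR-29c arm ratio was -0.91 under the block (adjusted p = 0.0730) and -0.98 to -0.83 without single libraries, and that of miR-29a was -0.59 to -0.44. The ratio of miR-29c-3p to miR-29a-3p was -0.82 with a pseudocount of 10. The summed guides rose by 27.7%, 33.5%, 26.8% and 26.4% with TMM, median-of-ratios, upper-quartile and listed-read scaling, under which the median of all miRNAs was -0.07, -0.02, -0.08 and -0.08. Where no value shows it, the cause was not tested. Whether libraries with the same replicate number belong together is not stated. Their deviations from the group means correlated at -0.084, -0.208 and -0.345, and those of libraries with unlike numbers at -0.184 to 0.303. Deviations cancel out within a group, so these values depend on each other and cannot decide whether the libraries were paired. The replicate block called 61 of all miRNAs higher and 115 lower. Depth limits miR-29b-2-5p, at 1 to 3 reads.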
